A study of Mus musculus with 9 samples.

Results

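The transcripts of 10 genes that coat hepatic lipid droplets or set the rate at which their triglyceride is broken down were followed in mouse liver. They were taken by symbol from count tables of 23337 genes and are 4 perilipins (Plin2, Plin3, Plin4 and Plin5), 3 CIDE genes (Cidea, Cideb and Cidec), the lipase gene Pnpla2, the gene of its inhibitor G0s2, and the droplet dehydrogenase gene Hsd17b13. All 10 symbols were found, and 9 passed the filter on low counts. Cidea did not.

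RNA sequencing covered 9 livers from wild-type (WT) mice, dissected in the fed state after 12 weeks on a diet begun at 8 weeks of age. The 3 ND libraries came from mice on normal diet, the 3 HFD libraries from mice on a diet labelled 60% high fat, and the 3 HFD+HDCA libraries from mice on the same high-fat diet with 0.25% hyodeoxycholic acid (HDCA), a bile acid that gut bacteria make from primary bile acids. Sex, strain background and any pooling of animals are not given in the sources used here. Reads on genes numbered 16994353 to 20509203 per library, and 8 hepatocyte markers summed to between 92826 and 128252 CPM (reads on a gene per 1e+06 reads on genes, with library sizes scaled by edgeR's TMM factors). Nothing says whether the libraries of a group came from separate cages or litters, so p-values measure the spread between these libraries.

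As background, a hepatocyte stores triglyceride in droplets bounded by a phospholipid monolayer. Perilipins sit on that surface and limit the access of lipases, while CIDE proteins act at contacts between droplets, where lipid passes from a smaller to a larger droplet. Adipose triglyceride lipase, the product of Pnpla2, takes the first fatty acid off a triglyceride, and G0S2 protein binds the enzyme and inhibits it. Several of these genes, among them Plin2, Plin5, Cidec and G0s2, are known targets of the fatty acid sensing nuclear receptors PPARA or PPARG, which as heterodimers with RXR bind repeats of the half-site AGGTCA.

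Positions follow the mm10 build (GENCODE annotation). Plin4 (chr17:56100591-56109802), Plin5 (chr17:56111601-56117548) and Plin3 (chr17:56278962-56290511) share the minus strand of chromosome 17, with 1798 bases between Plin4 and Plin5 and 161413 between Plin5 and Plin3. Elsewhere lie Plin2 (chr4:86656565-86670059, minus), Cideb (chr14:55754055-55758424, minus), Cidec (chr6:113424636-113435755, minus), Pnpla2 (chr7:141455188-141460743, plus), G0s2 (chr1:193272160-193273188, minus) and Hsd17b13 (chr5:103955442-103977388, minus). G0s2 lies inside Lamb3, a laminin gene on the opposite strand, and shares no exonic base with it. Cideb shares 1136 exonic bases with Nop9 on the opposite strand, and Plin4 shares 17 with Hdgfl2. The strand setting of the read counting is not stated, so reads of such antisense pairs cannot be told apart. Nop9 was low, at 21.4, 19.4 and 18.6 mean CPM in ND, HFD and HFD+HDCA, against 205 to 309 CPM for Cideb over the 9 libraries.

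Promoters are shown for the 2 genes that passed the test, G0s2 and Hsd17b13, and for Plin2, the perilipin with the highest level. Each sequence runs 5′ to 3′ on the gene's strand from 250 bases before the RefSeq start to 10 bases after its first base (GRCm38.p6, the assembly of mm10), and capitals mark the E-box CACGTG or the half-site AGGTCA read on either strand.
G0s2 (chr1:193273179-193273438, minus): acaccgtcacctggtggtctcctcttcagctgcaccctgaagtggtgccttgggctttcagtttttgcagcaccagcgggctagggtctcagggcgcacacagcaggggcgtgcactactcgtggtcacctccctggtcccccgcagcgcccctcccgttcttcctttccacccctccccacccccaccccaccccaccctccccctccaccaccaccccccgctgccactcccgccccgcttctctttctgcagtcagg
Plin2 (chr4:86670050-86670309, minus): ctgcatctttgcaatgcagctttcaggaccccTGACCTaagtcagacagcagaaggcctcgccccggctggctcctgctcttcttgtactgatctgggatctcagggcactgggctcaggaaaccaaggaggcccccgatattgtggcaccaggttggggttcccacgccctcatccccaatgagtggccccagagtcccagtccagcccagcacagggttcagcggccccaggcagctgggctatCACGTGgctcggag
Hsd17b13 (chr5:103977379-103977638, minus): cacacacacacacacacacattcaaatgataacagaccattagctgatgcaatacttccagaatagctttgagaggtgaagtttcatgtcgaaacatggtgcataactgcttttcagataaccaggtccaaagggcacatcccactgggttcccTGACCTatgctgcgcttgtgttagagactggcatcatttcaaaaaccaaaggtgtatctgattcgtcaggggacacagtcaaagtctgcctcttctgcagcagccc
The half-site stood in reverse orientation at base -218 of Plin2 and at base -96 of Hsd17b13, and the E-box at base -4 of Plin2, counted from the start. The G0s2 window held neither. Among 32851 mouse promoters of this length, 14.5% held the half-site on either strand and 6.34% the E-box. The direct repeat AGGTCANAGGTCA, 2 half-sites spaced by 1 base, was in 0.0335% of them and in none of these 3 windows. Among member windows not shown, 1 of Plin5 held the half-site, at base -170, and no E-box. The other Plin5 window and those of Pnpla2, Cideb, Cidec, Plin3 and Plin4 held neither the half-site nor the E-box. A match describes letters only, and its absence from a window says nothing of binding elsewhere.

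Levels between genes were compared as the authors' FPKM, fragments scaled to transcript length and depth. In ND livers Plin2 (250 ± 52.7 FPKM) and Hsd17b13 (220 ± 6.04) stood highest and their libraries overlapped, followed by Cideb (143 ± 6.68) and G0s2 (54.6 ± 18.7; SD, n = 3 each). Plin5 (19.0 ± 2.25), Pnpla2 (18.3 ± 3.59) and Plin3 (12.6 ± 0.445) came next, the first pair overlapping. Plin4 (1.80 ± 1.03) and Cidec (1.43 ± 0.330) overlapped near the bottom, and Cidea was last at 0.198 ± 0.0322 FPKM.

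The place of G0s2 in that order differed between the diets. In ND it ranked below Cideb, and there no G0s2 value reached the lowest Cideb value. In HFD its mean passed that of Cideb, at 238 ± 157 FPKM, overlapping both Hsd17b13 above it and Cideb below. In HFD+HDCA its mean was exceeded only by that of Plin2, at 561 ± 339 FPKM, overlapping Plin2 (602 ± 270) and Hsd17b13 (368 ± 18.8). These orders are descriptions and were not tested.

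**Figure D1:**
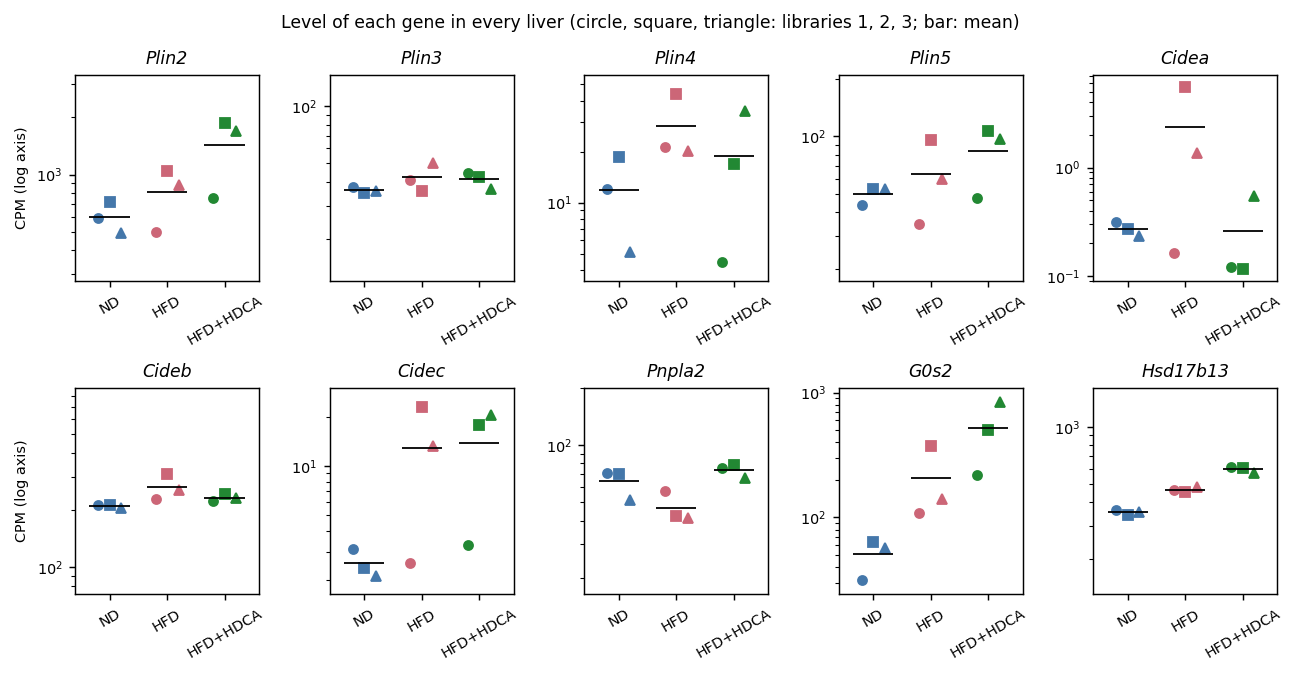
CPM of the 10 genes in every library, on log axes that differ in their limits between panels; circles, squares and triangles are libraries 1, 2 and 3 of a group and bars are means. G0s2 and Hsd17b13 are higher in all 3 HFD+HDCA libraries than in any ND library, while in Plin2, Plin5 and Cidec the circles of HFD and HFD+HDCA sit below the other libraries of their group.

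The changes that passed edgeR's quasi-likelihood test were both between HFD+HDCA and ND. G0s2 rose 10.2-fold and Hsd17b13 rose 1.68-fold, so 2 of the 9 tested members were called at an adjusted p under 0.05, against 6.47% of the 12587 genes tested; DESeq2 called 3 (11.1% of all genes), and 4 had an unadjusted p under 0.05 by edgeR (26.1%). Between HFD and ND 0 of 9 were called (0.953% of all genes), with 5 at an unadjusted p under 0.05 by edgeR (11.5% of all genes) and 1 called by DESeq2 (3% of all genes). Between HFD+HDCA and HFD 0 of 9 were called (3.4% of all genes), with 3 at an unadjusted p under 0.05 by edgeR (22% of all genes) and 2 called by DESeq2 (8.55% of all genes). The HFD libraries serve in both of these comparisons and the ND libraries in 2 of the 3, so the comparisons are not independent.

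Separation of the groups was also counted. Between HFD and ND, the libraries did not overlap for 4 of 9 genes, Plin4, Cideb, G0s2 and Hsd17b13, all higher on HFD; this held for 20.1% of all tested genes in either direction. Pnpla2 and Hsd17b13, 2 of 9, did not overlap between HFD+HDCA and HFD, both higher with HDCA; the same held for 22.4% of all genes. Between HFD+HDCA and ND it held for 5 of 9, Plin2, Cideb, Cidec, G0s2 and Hsd17b13, all higher, and for 33.9% of all genes. On the authors' FPKM the first counts were again 4 and 2, with the same genes (26% and 24.8% of all genes), but between HFD+HDCA and ND only G0s2 and Hsd17b13, 2 of 9, stayed apart (31.9% of all genes), since HFD+HDCA 1 fell within the ND range for Plin2, Cideb and Cidec. The median log2 fold change of the 9 genes was 0.39, 0.36 and 0.75 in the 3 comparisons in that order, against 0.02, -0.00 and 0.03 over all genes tested.

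**Figure D2:**
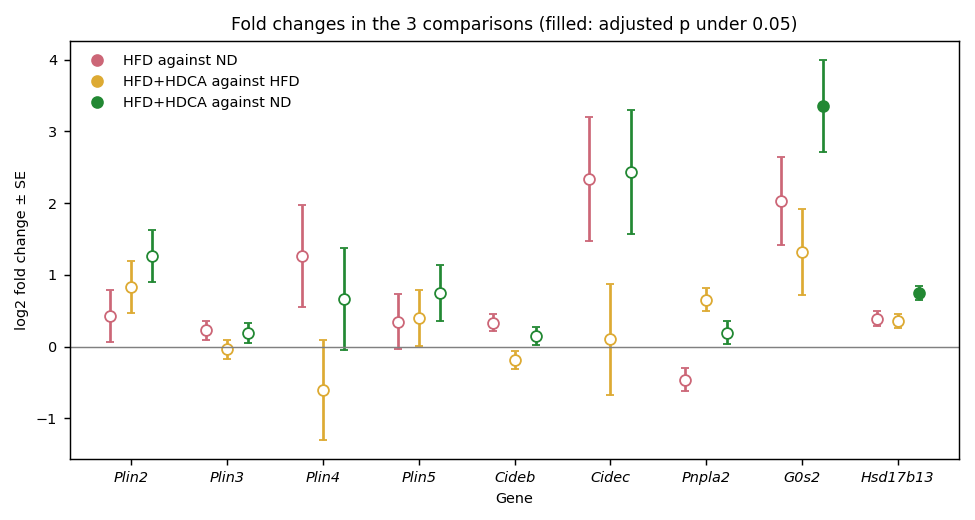
Log2 fold change with its standard error from edgeR for the 9 tested genes in the 3 comparisons; filled circles have an adjusted p under 0.05. Only G0s2 and Hsd17b13 in HFD+HDCA against ND are filled, and Plin4, Cidec and G0s2 carry the widest errors.

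G0s2, which encodes the inhibitor of adipose triglyceride lipase, had the larger of the changes that passed. It measured 31.5, 63.5 and 57.3 CPM in ND libraries 1 to 3, 109, 373 and 140 in HFD, and 218, 498 and 839 in HFD+HDCA. Every HFD and HFD+HDCA library was above every ND library, while the HFD and HFD+HDCA libraries overlapped. In bulk tissue, more cells that express a gene and more RNA per cell cannot be told apart.

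The log2 fold change of G0s2 was 3.35 ± 0.65 (SE) between HFD+HDCA and ND, with an edgeR adjusted p of 0.0239. It was 2.03 ± 0.61 between HFD and ND (adjusted p = 0.241) and 1.32 ± 0.60 between HFD+HDCA and HFD (adjusted p = 0.245), neither past the threshold. The call against ND was lost when ND 1, ND 2, ND 3 or HFD+HDCA 3 was left out (adjusted p = 0.101, 0.0762, 0.0828 and 0.0622 by edgeR), with log2 fold changes of 2.82 to 3.72 over the 9 fits that each left out 1 library. Without the low-count filter its edgeR adjusted p was 0.0585. Lamb3, the gene around G0s2, averaged 3.18 CPM in ND, 13.4 in HFD and 14.0 in HFD+HDCA.

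Pnpla2, the lipase gene, had its lowest levels on HFD. It measured 71.0, 70.7 and 51.5 CPM in ND, 57.0, 42.1 and 41.5 in HFD, and 75.4, 78.9 and 66.9 in HFD+HDCA. All HFD+HDCA libraries were above all HFD libraries, while HFD and ND overlapped through ND 3 and HFD 1.

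Pnpla2 was 1.57-fold higher in HFD+HDCA than in HFD, a log2 difference of 0.65 ± 0.16, and its adjusted p of 0.0541 by edgeR lay just outside the threshold. The difference passed with DESeq2 (adjusted p = 0.00889) and without HFD 1 (edgeR adjusted p = 0.0200). It also passed by edgeR without the low-count filter (adjusted p = 0.0467) and with the replicate number as a block (adjusted p = 0.0310). It did not pass in the other 8 fits that left out 1 library, with edgeR adjusted p of up to 0.173 without HFD 3, with limma on log2(FPKM + 0.1) (adjusted p = 0.114) or when only the 6 libraries compared were fitted (edgeR adjusted p = 0.113). HFD against ND gave -0.46 ± 0.16 (edgeR adjusted p = 0.286) and HFD+HDCA against ND 0.19 ± 0.16 (adjusted p = 0.470). The first pair of contrasts shares the HFD libraries, so their opposite signs are not separate observations.

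The inhibitor was set against the lipase as the ratio of their FPKM in each library. G0s2 over Pnpla2 was 1.67, 3.38 and 4.25 in ND, 7.28, 33.3 and 12.9 in HFD, and 11.0, 23.9 and 47.8 in HFD+HDCA. On FPKM, inhibitor transcript exceeded lipase transcript in all 9 livers, and every liver on either high-fat diet had a higher ratio than any ND liver. By CPM, which does not divide by length, the log2 ratio was negative in ND 1 (-1.17) and ND 2 (-0.154). The log2 ratio of FPKM was 1.53 ± 0.70 in ND, 3.87 ± 1.11 in HFD and 4.54 ± 1.06 in HFD+HDCA (SD, n = 3 each).

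The log2 ratio differed by 2.34 between HFD and ND and by 3.01 between HFD+HDCA and ND. For both the two-sided exact permutation test gave p = 0.1, the smallest that 3 libraries against 3 allow. HFD+HDCA and HFD overlapped and differed by 0.67 (exact permutation p = 0.5). That difference was 0.15 without HFD+HDCA 3, 0.17 without HFD 1, 1.21 without HFD+HDCA 1 and 1.26 without HFD 2. Between these 2 diets both transcripts had higher means with HDCA, and the ratio differed by less than the SD within either group.

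**Figure D3:**
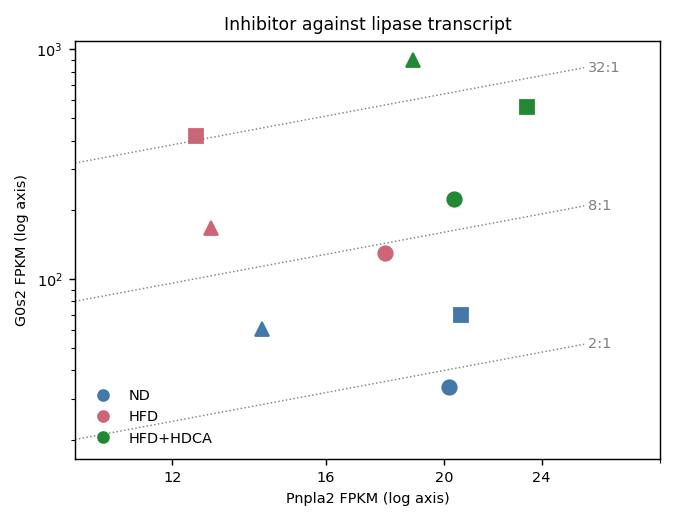
G0s2 FPKM against Pnpla2 FPKM in each library, both on log axes; circles, squares and triangles are libraries 1, 2 and 3, colours are diets, and dotted lines mark fixed ratios of the 2 transcripts. The ND libraries have ratios of 1.67 to 4.25 and, with HFD 1 at 7.28, lie below the 8:1 line, and the HFD+HDCA libraries lie to the right of all HFD libraries.

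Hsd17b13 encodes a hepatocyte retinol and steroid dehydrogenase of the droplet surface, and in humans loss-of-function variants of the gene are associated with a lower risk of chronic liver disease. It measured 366, 344 and 357 CPM in ND, 464, 453 and 481 in HFD, and 611, 606 and 574 in HFD+HDCA. The 3 diets formed 3 steps without overlap, and the libraries of a group stayed close together.

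Hsd17b13 was the gene with the smallest standard errors of the 9. HFD+HDCA against ND gave a log2 fold change of 0.75 ± 0.10 with an edgeR adjusted p of 0.00409, and the call was kept in all 9 fits that left out 1 library, with adjusted p from 0.00401 to 0.0275. The single steps were 0.39 ± 0.10 from ND to HFD (adjusted p = 0.143) and 0.36 ± 0.10 from HFD to HFD+HDCA (adjusted p = 0.0855), neither past the threshold with edgeR. Both passed with DESeq2 (adjusted p = 0.00031 and 0.000473), and limma on log2(FPKM + 0.1) passed the step from ND to HFD (adjusted p = 0.0446) and not the other (adjusted p = 0.174).

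Plin2, the perilipin found on droplets of most cells, held most of the perilipin transcript in every liver. It measured 592, 718 and 492 CPM in ND, 501, 1049 and 875 in HFD, and 749, 1877 and 1691 in HFD+HDCA. In CPM all HFD+HDCA libraries lay above all ND libraries, but on the authors' FPKM HFD+HDCA 1 (297) lay below ND 2 (304), and HFD 1 lay within the ND range.

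Plin2 was 1.26 ± 0.36 higher on the log2 scale in HFD+HDCA than in ND, with an adjusted p of 0.0739 by edgeR, which did not pass. Without HFD+HDCA 1 the same test gave 0.0168, without HFD 1 it gave 0.0480, and DESeq2 on all libraries gave an adjusted p of 0.00348. The other 7 fits that left out 1 library did not pass, with edgeR adjusted p of up to 0.210, nor did limma on log2(FPKM + 0.1) with an adjusted p of 0.113. HFD against ND gave 0.43 ± 0.36 (edgeR adjusted p = 0.723) and HFD+HDCA against HFD 0.83 ± 0.36 (adjusted p = 0.219).

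Plin5 recruits mitochondria to droplets and binds the lipase and its co-activator. It measured 43.5, 52.9 and 52.9 CPM in ND, 34.4, 95.7 and 60.0 in HFD, and 47.4, 107 and 96.5 in HFD+HDCA. The lowest library of each high-fat diet was within or below the ND range and the other 2 above it, so the groups overlapped in every comparison. Log2 fold changes ran from 0.35 to 0.75 with standard errors of 0.38 to 0.39, and the edgeR adjusted p from 0.253 to 0.800.

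Plin4, best known from adipocytes and muscle, had a low and scattered level. It measured 12.0, 18.5 and 5.15 CPM in ND, 21.5, 43.9 and 20.2 in HFD, and 4.48, 17.0 and 34.9 in HFD+HDCA. The HFD libraries stood above ND without overlap, and the HFD+HDCA libraries spanned nearly the whole range. HFD against ND gave 1.26 ± 0.71 (edgeR adjusted p = 0.569) and HFD+HDCA against HFD -0.60 ± 0.69 (adjusted p = 0.654).

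Plin3, the perilipin that moves from the cytosol to nascent droplets, varied least of the 4. It ranged from 35.1 to 37.6 CPM in ND, from 36.0 to 50.3 in HFD and from 36.5 to 44.6 in HFD+HDCA, with overlap in every comparison. Its log2 fold changes were 0.23 ± 0.13, -0.04 ± 0.13 and 0.19 ± 0.13 for HFD against ND, HFD+HDCA against HFD and HFD+HDCA against ND, with edgeR adjusted p of 0.578, 0.889 and 0.395.

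Summed over the 4 genes, perilipin transcript averaged 283 ± 54.4 FPKM in ND, 407 ± 127 in HFD and 652 ± 285 in HFD+HDCA (SD, n = 3 each). Plin2 made up 88.0 ± 1.89% of that sum in ND, 88.4 ± 1.01% in HFD and 91.9 ± 1.64% in HFD+HDCA. Plin5 made up 6.87 ± 1.47%, 6.22 ± 1.19% and 5.04 ± 0.217%, and Plin3 4.56 ± 0.815%, 4.27 ± 1.72% and 2.62 ± 1.60%. The Plin4 share was 0.604 ± 0.254%, 1.15 ± 0.363% and 0.399 ± 0.262%. In HFD+HDCA the Plin3 share was 1.70% without library 1 and the Plin4 share 0.252% without library 3. These shares were not tested.

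**Figure D4:**
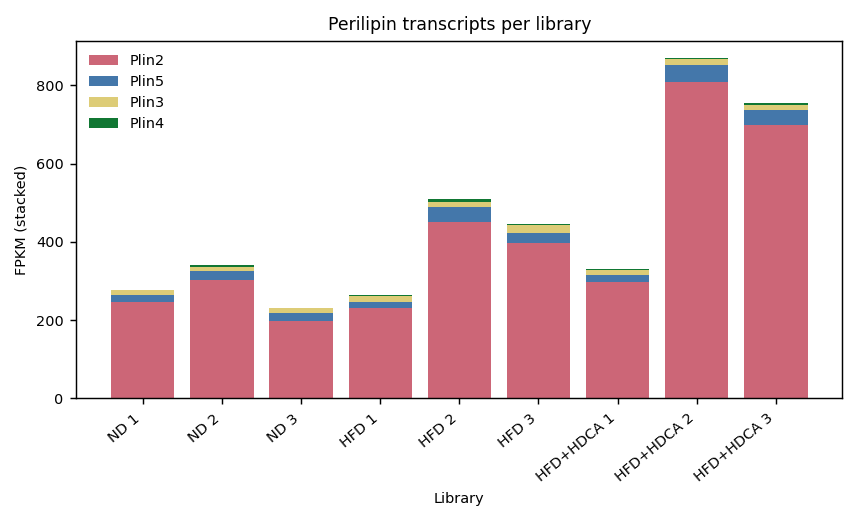
FPKM of the 4 perilipin genes stacked for each library, with no error bars because each bar is 1 library. Plin2 fills most of every bar, and HFD+HDCA 2 and 3 are the highest at up to 871 FPKM, while HFD 1 and HFD+HDCA 1, at 265 and 330 FPKM, lie within the ND range of 232 to 340.

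Among the CIDE genes, Cideb is the form that the normal hepatocyte expresses, with a role in the lipidation of very low density lipoprotein. It measured 213, 212 and 205 CPM in ND, 229, 309 and 256 in HFD, and 224, 242 and 231 in HFD+HDCA. Both high-fat groups stood above ND without overlap in CPM, though on FPKM HFD+HDCA 1 (146.1) fell within the ND range of 136 to 148. The differences were small, at 0.34 ± 0.12 and 0.15 ± 0.12 on the log2 scale (edgeR adjusted p = 0.319 and 0.476). HFD+HDCA and HFD overlapped, with -0.19 ± 0.12 (adjusted p = 0.400).

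Cidec, known as FSP27 and induced in fatty liver, separated the libraries into a low and a high set that did not follow diet alone. It measured 3.12, 2.38 and 2.14 CPM in ND, 2.55, 23.0 and 13.2 in HFD, and 3.27, 17.8 and 20.6 in HFD+HDCA. HFD 1 lay within the ND range and HFD+HDCA 1 just above it in CPM, and within it on FPKM, whereas the other 4 high-fat libraries were all at 13.2 CPM or more. The fold changes against ND were large with large errors, 2.34 ± 0.86 for HFD and 2.44 ± 0.86 for HFD+HDCA on the log2 scale (edgeR adjusted p = 0.344 and 0.125). Against each other HFD+HDCA and HFD differed by 0.10 ± 0.77 (adjusted p = 0.957).

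Cidea, a gene of brown fat and of steatotic liver, was close to its detection limit. It had 6, 5 and 4 reads in the ND libraries, 3, 110 and 26 in HFD, and 2, 2 and 9 in HFD+HDCA. In CPM these were 0.31, 0.27 and 0.23, then 0.16, 5.56 and 1.35, then 0.12, 0.12 and 0.54. A count of 0 allows up to 3 reads, or 0.146 to 0.177 CPM at these depths before TMM scaling and for counting error only, and HFD 1, HFD+HDCA 1 and HFD+HDCA 2 did not exceed 3 reads. Only HFD 2 and HFD 3 were clearly above the ND level.

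Cideb made up 98.9 ± 0.208% of the summed CIDE FPKM in ND, 96.2 ± 2.76% in HFD and 96.0 ± 2.45% in HFD+HDCA. Cidec made up 0.983 ± 0.191%, 2.998 ± 1.94% and 3.86 ± 2.40% in the same order, and Cidea less than 1% on average in each group. The sum was 145 ± 6.99, 205 ± 32.0 and 166 ± 17.6 FPKM (SD, n = 3 each).

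Library 1 of both high-fat groups stood apart for several of these genes. HFD 1 was the lowest of its group for 5 of 9 tested members (Plin2, Plin5, Cideb, Cidec and G0s2), where it was lowest for 36.4% of all tested genes. HFD+HDCA 1 was the lowest for 6 of 9, the same 5 and Plin4, against 40.3% of all tested genes. HFD 2 was the highest of its group for 6 of 9, against 36.7%.

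Other transcripts stood apart in HFD 1 and in HFD+HDCA 1, with different ones in each. The clock output gene Dbp was at 85.8 CPM in HFD 1, against 0.752 to 14.6 in the other 8 libraries, and the acute phase gene Saa1 was at 3371 CPM in HFD+HDCA 1, against 22.8 to 74.4 in the others. Without both libraries, the edgeR test called Cidec higher and Pnpla2 lower between HFD and ND, where 4.54% of all genes were called. It called Plin2 and Pnpla2 higher between HFD+HDCA and HFD (7.7% of all genes), and Plin2, Plin5, Cidec, G0s2 and Hsd17b13 higher between HFD+HDCA and ND (9.12% of all genes). Both libraries were left out knowing that they are low for Plin2, Plin5 and Cidec. Pnpla2 was also known to be the highest of its group in HFD 1, so the added calls are not independent support. Cidea entered that fit only through HFD 2 and 3, where it is high, and its values there are not read as a test. The part of clock phase or of the acute phase response in these values was not tested.

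Markers of other cell types were read beside Plin4, Cidea and Cidec, which adipocytes express strongly. HFD 2, the library with the highest level of all 3, had adiponectin (Adipoq) at 1.46 CPM, leptin (Lep) at 0.758, Plin1 at 0.657 and adipsin (Cfd) at 11.4. Adipoq was at 0 in 6 libraries and at 0.0542 and 0.174 in HFD 1 and HFD+HDCA 2, and Lep was at 0 in the other 8. Of the 10 adipocyte markers 6 had their highest value in HFD 2 (these 4, Retn and Tusc5), while Lipe and Adrb3 were highest in HFD+HDCA 1, Fabp4 was higher in HFD 3 (20.2 CPM) than in HFD 2 (17.5), and Ucp1 was at 0 in HFD 2. The 10 markers, of which 4 passed the filter, summed to 24.4 to 30.3 CPM in ND, 30.3 to 49.3 in HFD and 30.6 to 42.9 in HFD+HDCA.

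Cidec in HFD+HDCA 2 and 3 was at 17.8 and 20.6 CPM. In these libraries Adipoq was at 0.174 and 0 CPM and Lep at 0 in both. Plin1 was at 0.0581 and 0, and Cfd at 0.116 and 0.782. The 10 adipocyte markers summed to 30.6 and 31.8 CPM there. The part of adipocytes in these Cidec values was not tested. Macrophage markers, of which 11 of 12 passed the filter, summed to 399 to 476 CPM in ND, 151 to 911 in HFD and 357 to 708 in HFD+HDCA. The sum was lowest in HFD 2. Single markers differed, as Gpnmb was highest there (1.72 CPM), and Trem2 (0.859), Itgax (1.31) and Cd9 (14.9) were not at their lowest. The 8 stellate cell markers summed to 351 to 391, 381 to 452 and 312 to 480 CPM. Of these, 4 were highest in HFD 2, Des, Col1a1 (19.0 CPM, against at most 13.7 elsewhere), Col3a1 (91.1, against at most 62.0) and Acta2 (38.4, against at most 14.1). The rest were not, as Lrat was at its lowest in HFD 2 (15.2 CPM, against 20.6 to 28.9 elsewhere). Reln (46.9) and Dcn (215) were there at the lowest of the HFD group, and Rgs5 (16.8) lay between the other HFD libraries. The part of other cell types in the levels of HFD 2 was not tested.

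**Figure D5:**
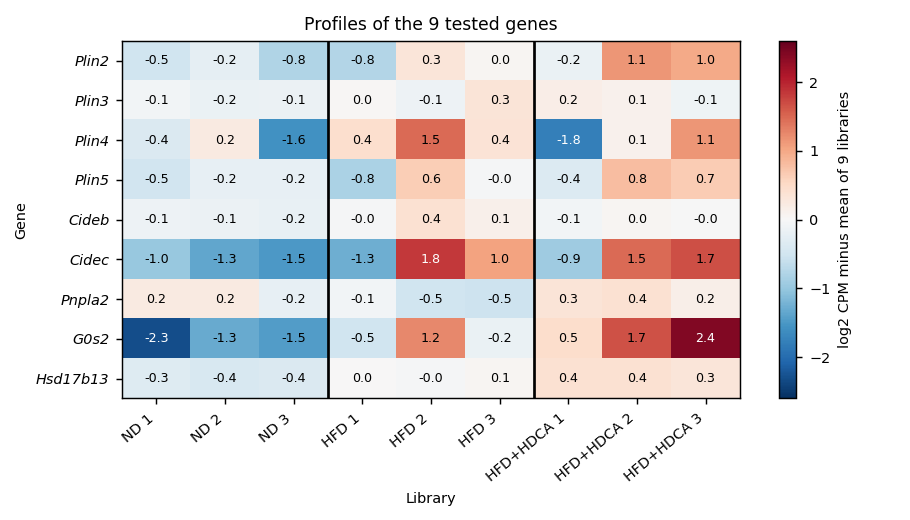
Log2 CPM of the 9 tested genes in each library, centred on the gene's mean over the 9 libraries, with red above and blue below that mean. Plin2, Plin5, Cidec and G0s2 are below the rest of their group in HFD 1 and HFD+HDCA 1, whereas Hsd17b13 steps up by diet and Pnpla2 is lowest in HFD 2 and 3.

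The genes nearest in pattern were sought among 10253 tested genes by the root mean square difference between centred log2 CPM profiles over the 9 libraries. Plin2 was nearest to Pex11a, a peroxisome division factor (0.21), Crat, carnitine acetyltransferase (0.24), and Chrna2 (0.24), against a median of 0.69 over the candidates. Pex11a averaged 51.2 CPM in ND, 63.3 in HFD and 121 in HFD+HDCA, and Crat 61.1, 102 and 196. Plin5 and Plin2 differed from each other by 0.28, and the genes nearest to Plin5 were Tmem64 (0.23), Chpf (0.26) and Gbp6 (0.26). For Plin5 the median over the candidates was 0.58.

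The genes nearest to G0s2 were Vnn1 (0.62), Tor3a (0.64) and Acot4 (0.67). The first is the pantetheinase vanin 1 and the last a peroxisomal acyl-CoA thioesterase. Cidec was nearest to Lamb3 (0.53), Inhbe (0.57), which encodes a hepatokine subunit, and Slc17a8 (0.60). Plin4 was nearest to Osbpl3, Clstn3 and Acss3 (each 0.55). Medians over the candidates were 1.38 for Cidec and 1.05 for Plin4. The 9 libraries include the ones that stood apart, and these likenesses are descriptions with no test.

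Genes of droplet assembly and surface outside the 10 included Fitm2, Dgat2 and Hsd17b11 among those that passed. Of 15 tested from a list of 16, 0 passed between HFD and ND, 1 rose and 1 fell between HFD+HDCA and HFD, and 2 rose between HFD+HDCA and ND, against 0.953, 3.4 and 6.47% of all genes called, with medians of 0.03, 0.04 and 0.00 on the log2 scale against 0.02, -0.00 and 0.03 over all genes. Fitm2, which partitions triglyceride into nascent droplets, averaged 29.1 ± 2.58 CPM in ND, 32.6 ± 3.99 in HFD and 52.6 ± 11.1 in HFD+HDCA. It rose by 0.69 ± 0.16 against HFD (edgeR adjusted p = 0.0458) and 0.85 ± 0.16 against ND (adjusted p = 0.0149).

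Dgat2, which makes triglyceride at the endoplasmic reticulum and droplet, fell from 527 ± 74.9 CPM in HFD to 345 ± 20.1 in HFD+HDCA, a log2 change of -0.61 ± 0.13 (edgeR adjusted p = 0.0317). Hsd17b11, the close relative of Hsd17b13 on droplets, rose from 219 ± 2.86 CPM in ND to 332 ± 54.1 in HFD+HDCA, by 0.60 ± 0.15 (edgeR adjusted p = 0.0388). These calls were near the threshold. Of the 9 fits that left out 1 library, Dgat2 kept its call in 2 (edgeR adjusted p up to 0.0811), Fitm2 in 1 against HFD (up to 0.147) and in 6 against ND (up to 0.0761), and Hsd17b11 in 4 (up to 0.139).

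Other genes of lipolysis moved both ways. Of 16 tested, 1 fell between HFD and ND, 1 fell between HFD+HDCA and HFD, and 2 rose and 2 fell between HFD+HDCA and ND, with medians of 0.03, 0.18 and 0.39 on the log2 scale; the same shares and medians over all genes apply. Ces3b, a carboxylesterase of the hepatocyte endoplasmic reticulum, fell from 418 ± 63.4 CPM in ND to 215 ± 5.46 in HFD (-0.96 ± 0.13, edgeR adjusted p = 0.0104) and was at 239 ± 16.5 in HFD+HDCA (-0.80 ± 0.13 against ND, adjusted p = 0.00772). Ces1g, another carboxylesterase, was at 251 ± 11.9 in ND and 253 ± 59.4 in HFD and fell to 107 ± 15.0 in HFD+HDCA (-1.24 ± 0.17 against HFD, edgeR adjusted p = 0.00625). These calls held in all 9 fits that left out 1 library. As close relatives, carboxylesterases may share reads, so values of single members are uncertain.

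Mgll, monoacylglycerol lipase, rose from 186 ± 21.4 CPM in ND to 416 ± 131 in HFD+HDCA, by 1.16 ± 0.24 (edgeR adjusted p = 0.0210). Hilpda, which like G0s2 encodes an inhibitor of adipose triglyceride lipase, rose from 2.13 ± 0.203 to 6.50 ± 2.87 CPM, by 1.61 ± 0.36 (edgeR adjusted p = 0.0270). Both lost the call without ND 1, ND 2, ND 3 or HFD+HDCA 3, the same libraries as G0s2, with edgeR adjusted p of up to 0.0891 for Mgll and 0.120 for Hilpda.

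Lists of nuclear receptor targets were read beside the droplet genes. Of 23 tested PPARA targets, 0 passed between HFD and ND, 5 rose between HFD+HDCA and HFD, and 12 rose between HFD+HDCA and ND, with medians of 0.30, 0.69 and 0.91 against 0.02, -0.00 and 0.03 over all genes, of which 0.953, 3.4 and 6.47% were called. Leaving out 1 library gave 0 to 1 called (lower on HFD), 1 to 10 and 2 to 17 (all higher). Against HFD the calls of Slc25a20, Ehhadh, Hadhb and Cyp4a10 were kept in 6, 4, 2 and 1 of those 9 fits. The fatty acid transporter gene Slc27a1 was at 7.03 ± 0.672 CPM in ND and 7.01 ± 2.65 in HFD and rose to 24.6 ± 5.66 in HFD+HDCA (1.81 ± 0.26 against HFD, edgeR adjusted p = 0.00872), a call kept in all 9 fits that left out 1 library. Vnn1, the nearest in pattern to G0s2, rose from 54.2 ± 23.1 CPM in ND to 343 ± 154 in HFD+HDCA (2.66 ± 0.42, edgeR adjusted p = 0.0103), a call lost without ND 1 (adjusted p = 0.0582). Its likeness to G0s2 comes from these same 9 libraries, so the rises of these genes are not independent observations.

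Of 8 genes of the PPARG programme of fatty liver, Pparg and Cd36 among them, 0 passed in any comparison by edgeR. DESeq2 called 4 higher between HFD and ND (3% of all genes). It called 2 lower between HFD+HDCA and HFD (8.55%) and 1 higher between HFD+HDCA and ND (11.1%). The median log2 fold change of the 8 by edgeR was 1.13 between HFD and ND, with 7 of 8 above 0. Between HFD+HDCA and HFD it was -0.59 (-0.99 to -0.27 leaving out 1 library), with 0 of 8 above 0. The HFD libraries enter both. The list holds Fabp4 and Cfd, which are adipocyte markers as well; without them, a choice made after seeing the values, the medians were 0.95 and -0.48, and without HFD 2 they were 1.05 and -0.47. Without both HFD 1 and HFD+HDCA 1 they were 1.25 and -0.85, and 3 genes rose between HFD and ND and 2 fell between HFD+HDCA and HFD. Of all genes, 4.54% and 7.7% were called in that fit. These libraries were left out knowing that they are low for droplet genes, so these values are not independent support. With all 9 libraries, the median between HFD+HDCA and ND was 0.35, with 5 of 8 above 0. Of the droplet genes often grouped with this programme, Cidec stood at 0.10 and Plin4 at -0.60 on the log2 scale between HFD+HDCA and HFD, neither past the threshold. Cidea, below the low-count filter and not tested, averaged 2.36 CPM in HFD, through HFD 2 and 3, and 0.26 in HFD+HDCA.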

How the data were processed

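Bulk RNA sequencing of 9 livers was analysed, 3 per diet, grouped by sample titles. Per the labels, total RNA was extracted with an RNeasy lipid kit and libraries were made with a TruSeq kit. The deposited count tables hold whole reads per gene from HTSeq, per the names the authors gave them, with the word antisense and no stated strand setting. The authors also deposited Cufflinks gene tables in FPKM, per the file headers. The mm10 build, Cufflinks 2.0.2 and TopHat 1.3.2 are listed, with no role, in the submitters' processing notes. Reads assigned to no gene (27.9 to 36.1% of a library) were left out, as were 246 symbols with several rows in the FPKM tables.

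Genes passing filterByExpr (minimum count 10; 12587 genes) were tested with edgeR 4.0.16 (R 4.3.3), quasi-likelihood F test with robust estimation and TMM scaling, all 9 libraries in one model, two-sided p adjusted by Benjamini-Hochberg over all genes of a comparison and called under 0.05. The procedure was tested on simulated data. Alternatives were RLE scaling, no filter, DESeq2 1.42.0, limma 3.58.1 on log2(FPKM + 0.1) for genes of at least 0.5 FPKM in 3 libraries, leaving out libraries, a replicate block and fits of 6 libraries.

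All 10 members are named. List genes are named when past the threshold, at most 6 a list. Nearest genes averaged at least 2 CPM (prior count 3 for log2 CPM) and are given for members whose profile SD was at least 0.5. The members and lists were chosen with earlier results of these data known.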

Additional observations from a re-analysis of the deposited data

How the results depend on the processing

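Of 432 refitted log2 fold changes, 402 kept direction and side of the threshold, 18 newly passed, 5 no longer passed and 7 changed sign. The sign changes were Plin5 between HFD and ND without HFD 2 (-0.077; range -0.077 to 0.64), Plin3 between HFD+HDCA and HFD without HFD 3 (0.10) or HFD+HDCA 3 (0.040), Cidec between HFD+HDCA and HFD without HFD 1 (-0.38), HFD+HDCA 2 (-0.091) or HFD+HDCA 3 (-0.29; range -0.38 to 0.82), and Plin4 between HFD+HDCA and ND without HFD+HDCA 3 (-0.14; range -0.14 to 1.12). None of these was called with all libraries. All 24 refits of the log2 ratio of G0s2 to Pnpla2 kept their direction. On FPKM in place of CPM, an alternative chosen after seeing the data, members without overlap between HFD+HDCA and ND were 2 in place of 5, and the other counts stayed at 4 and 2.

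Members called between HFD and ND were 1 with DESeq2, 1 with limma on FPKM, 3 (Cidea among them) without both HFD 1 and HFD+HDCA 1, and 0 to 1 leaving out 1 library. Those between HFD+HDCA and HFD were 1 without the filter, 2 with DESeq2, 3 (Cidea among them) without both libraries and 0 to 2 leaving out 1 library. Those between HFD+HDCA and ND were 1 without the filter, 5 without both libraries and 1 to 3 leaving out 1 library. In the first 2 comparisons the highest counts leaving out 1 library came without HFD 1, as Cidea alone and as Pnpla2 with Cidea. Cidea entered that fit only through HFD 2 and 3, where it is high, and is not read as a test. Genes called (120, 428 and 815) were 377, 1076 and 1398 with DESeq2, and 576, 977 and 1157 without both libraries. The second gave 134 when only its 6 libraries were fitted, which leaves fewer samples. Leaving out 1 library gave 32 to 226, 127 to 672 and 196 to 1213. Limma on FPKM called 162 genes between HFD and ND, and the fit without the filter called 422 between HFD+HDCA and HFD. The other causes were not tested.

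With the replicate number as a block, called members were 0, 1 (Pnpla2) and 3 (Plin2 added), and called genes 82, 328 and 715. Deviations of same-numbered libraries correlated at -0.149 to 0.153, so the numbers were not taken to pair the animals. By CPM in place of FPKM, the Plin2 share of perilipin transcript was 85.8% in ND and 85.5% in HFD, that of Plin4 was 1.63, 3.06 and 1.08% in ND, HFD and HFD+HDCA, and that of Plin5 was 5.34% in HFD+HDCA, since CPM does not divide by length. Depth limited Cidea, with 2 to 9 reads in 7 of 9 libraries.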
